A study of Mus musculus with 3 samples.

Results

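Integrins are the receptors by which cells hold on to the matrix around them, and laminins are the proteins from which the basement membrane under endothelial and muscle cells is built. The genes described here are those whose mouse symbol is that of a numbered integrin alpha or beta subunit (Itga, with Itga2b, and Itgb), a laminin alpha, beta or gamma chain (Lama, Lamb, Lamc), a nidogen (Nid1, Nid2), perlecan (Hspg2) or fibronectin (Fn1). The rule itself uses symbols and no measured value. The rule takes 35 symbols, and 33 genes with a probe are described, out of 20886 named genes in all; Itga10 and 1 other gene were not analysed here. The 33 genes were read by 43 probes, and 9 genes had 2 or more. On all 3 arrays 32 of the 33 genes were well above background, and the remaining gene, Itgb6, was so in high glucose only.

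Each integrin is a pair of 1 alpha and 1 beta subunit, and the pair decides which ligand is bound: collagens, laminins, or proteins with the short RGD motif such as fibronectin. Laminins are trimers of an alpha, a beta and a gamma chain, and nidogens and perlecan link the laminin network to type IV collagen. In vessels, integrins that contain beta 1 anchor endothelial and mural cells to basement membrane and fibronectin, while the beta 2 and beta 7 subunits are known from leukocytes.

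The cells were primary cultures from the erectile (cavernous) tissue of C57BL/6 mice, labelled as endothelial, and their RNA was hybridised to 3 Agilent arrays with 1 dye. One condition was normal glucose, labelled 5 mmol, another was high glucose, labelled 30 mmol, and the last was the same high glucose plus DKK2, a secreted modulator of Wnt signalling. Treatment lasted 48 h, and no dose of DKK2 is stated in the labels. All cells grew in medium with serum, heparin and VEGF-A. Each array held RNA pooled from 3 samples, so there was 1 array per condition, with no replicate check and no p-value, and array and condition cannot be told apart.

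The normal glucose array was dimmer than the others, with a 75th percentile of processed signal of 1201 against 2380 in high glucose and 2417 with DKK2. Signals are therefore given scaled to a common 75th percentile of 1905, and a difference is the log2 ratio of 2 scaled signals. Signals of different genes come from different probes and were not compared with each other. The error given with a difference is the technical SD from the scanner's error model, with a median of 0.20 over the 32 measured genes in each of the 3 comparisons; it does not cover variation between cultures. "Higher" and "lower" mean at least 2-fold, with the gene well above background on both arrays. Of 18 endothelial markers 16 were well above background on all 3 arrays, Emcn on 2 and Erg on 1. All 12 fibroblast markers were so on all 3 arrays, as were 11 of 12 smooth muscle and pericyte markers. In this pooled RNA, fewer cells of a type and less RNA per cell cannot be told apart.

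**Figure D1:**
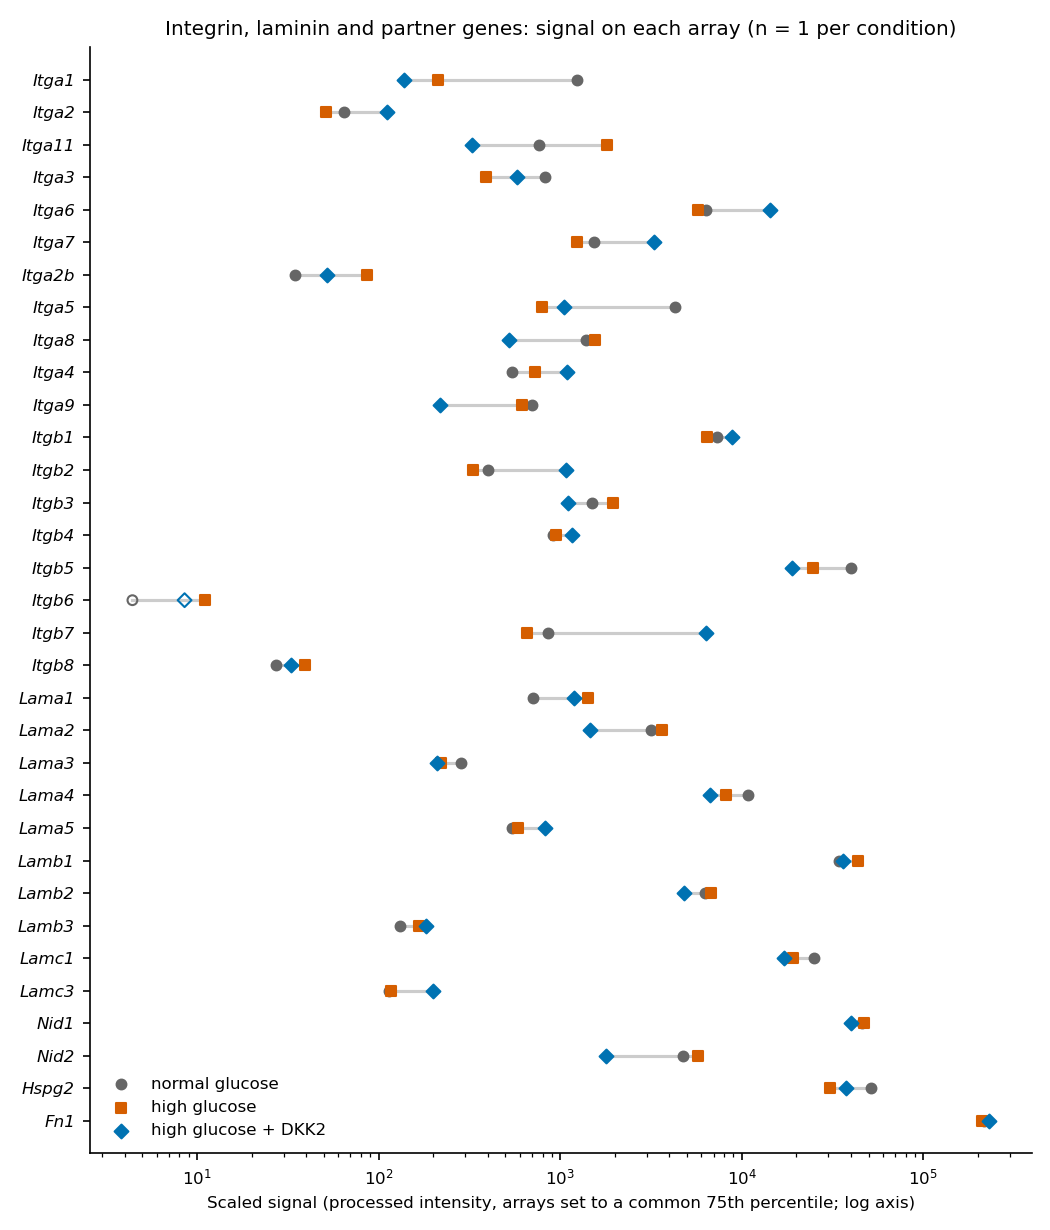
Scaled signal of the 33 genes (log axis, arbitrary intensity units) on the normal glucose, high glucose and high glucose with DKK2 arrays, 1 array each; open symbols are not well above background. The DKK2 array lies apart for Itgb7, Itgb2, Itga6 and Itga7 on the high side and for Nid2, Itga8, Itga9 and Lama2 on the low side, and the normal glucose array lies apart on the high side for Itga1 and Itga5.

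High glucose was first set against normal glucose. The alpha subunits Itga1, Itga5 and Itga3 were lower in high glucose, and Itga11 and Itga2b were higher. On its brightest probe, no measured beta subunit, laminin chain, nidogen, perlecan or fibronectin gene passed 2-fold in either direction. The dimmer probe of Hspg2 did, at -1.19. In all, 2 of 32 genes were higher and 3 lower, a share of 15.6%, where 8.4% of the 16771 genes measured on both arrays were at least 2-fold apart (2.67% higher and 5.72% lower). The median of the 32 differences was 0.00088, and that of all genes 0.09. The 18 integrin subunits had a median of -0.19 and the 10 laminin chains 0.11. Normexp, a background model that acts more on dim signals, turned the 448 higher and 960 lower of all genes into 171 and 3946, and their median into -0.26.

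Cell type markers were counted in the same comparison. Of 16 endothelial markers 5 were higher in high glucose and 0 lower. All 5 calls were lost with normexp, which gave 0 higher and 1 lower. The summed scaled signals of the list were 14116 and 17456, of which Kdr alone read 5784 and 7305. Of 10 adipocyte markers 3 were higher and 0 lower (1 and 2 with normexp), with sums of 39647 and 52917. Of 11 macrophage and leukocyte markers 2 were higher and 0 lower (1 and 1 with normexp), with sums of 5428 and 6641. Of 12 smooth muscle and pericyte markers 0 were higher and 1 was lower (5 lower with normexp), and their sum was 191508 in normal and 125361 in high glucose. Of 12 fibroblast markers 0 passed 2-fold in either setting. Of 13 skeletal muscle markers 1 was higher and 1 lower (0 and 6 with normexp), and of 4 epithelial markers 0 passed 2-fold. The part of these cells in the values that follow was not tested.

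Itga5 encodes the alpha subunit of the main fibronectin receptor, which it forms with beta 1. It read 4285 on the normal glucose array, 793 in high glucose and 1057 after DKK2. The high glucose value was 5.40-fold below normal glucose, a log2 difference of -2.43 (technical SD 0.20), at rank 76 from the bottom of 16771 genes. The DKK2 array stayed on the low side, 0.41 above high glucose and -2.02 from normal glucose. Fn1, its ligand, read 215442, 211054 and 230737 in the same order, and neighbouring values in that order lay within 1.09-fold of each other.

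Itga1 encodes a collagen receptor subunit of endothelial, smooth muscle and stromal cells. Its brighter probe read 1244 on the normal glucose array, 213 on the high glucose array and 137 on the DKK2 array, so high glucose was 5.85-fold lower (-2.55, technical SD 0.20). The other Itga1 probe read 324, 197 and 188 and differed by -0.72. Both probes were highest in normal glucose, but only the brighter 1 passed 2-fold, and the mean over both was -1.63. Itga3, a laminin receptor subunit, read 828, 389 and 576, a difference of -1.09 (technical SD 0.20) between high and normal glucose.

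Itga11 encodes a collagen receptor subunit typical of fibroblasts. It read 767 on the normal glucose array, 1816 in high glucose and 329 with DKK2, which is 1.24 (technical SD 0.20) higher in high glucose. The high glucose array was the highest of the 3 and the DKK2 array the lowest. Itga2b, the platelet subunit that pairs with beta 3, read only 34.6, 86.1 and 52.3. Its difference of 1.32 in high glucose became -0.72 with normexp background correction, so no direction is given for it. Lama1, a laminin chain of embryonic and specialised basement membranes, read 709.99, 1419 and 1187 and lay just inside 2-fold at 0.999, while Itga3 at -1.09 lay just outside it.

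The second comparison asked what DKK2 changed in high glucose, and here more of the genes moved. The laminin receptor subunits Itga6 and Itga7, the leukocyte subunits Itgb2 and Itgb7 and the collagen receptor subunit Itga2 were higher with DKK2. The subunits Itga8, Itga9 and Itga11, the laminin chain Lama2 and the nidogen Nid2 were lower. That is 5 of 32 genes higher and 5 lower, a share of 31.2%, where 9.93% of the 17825 genes measured on both arrays were at least 2-fold apart (5.08% higher and 4.85% lower). The median difference was -0.11, against 0.08 over all genes, so the genes spread to both sides without a common shift.

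**Figure D2:**
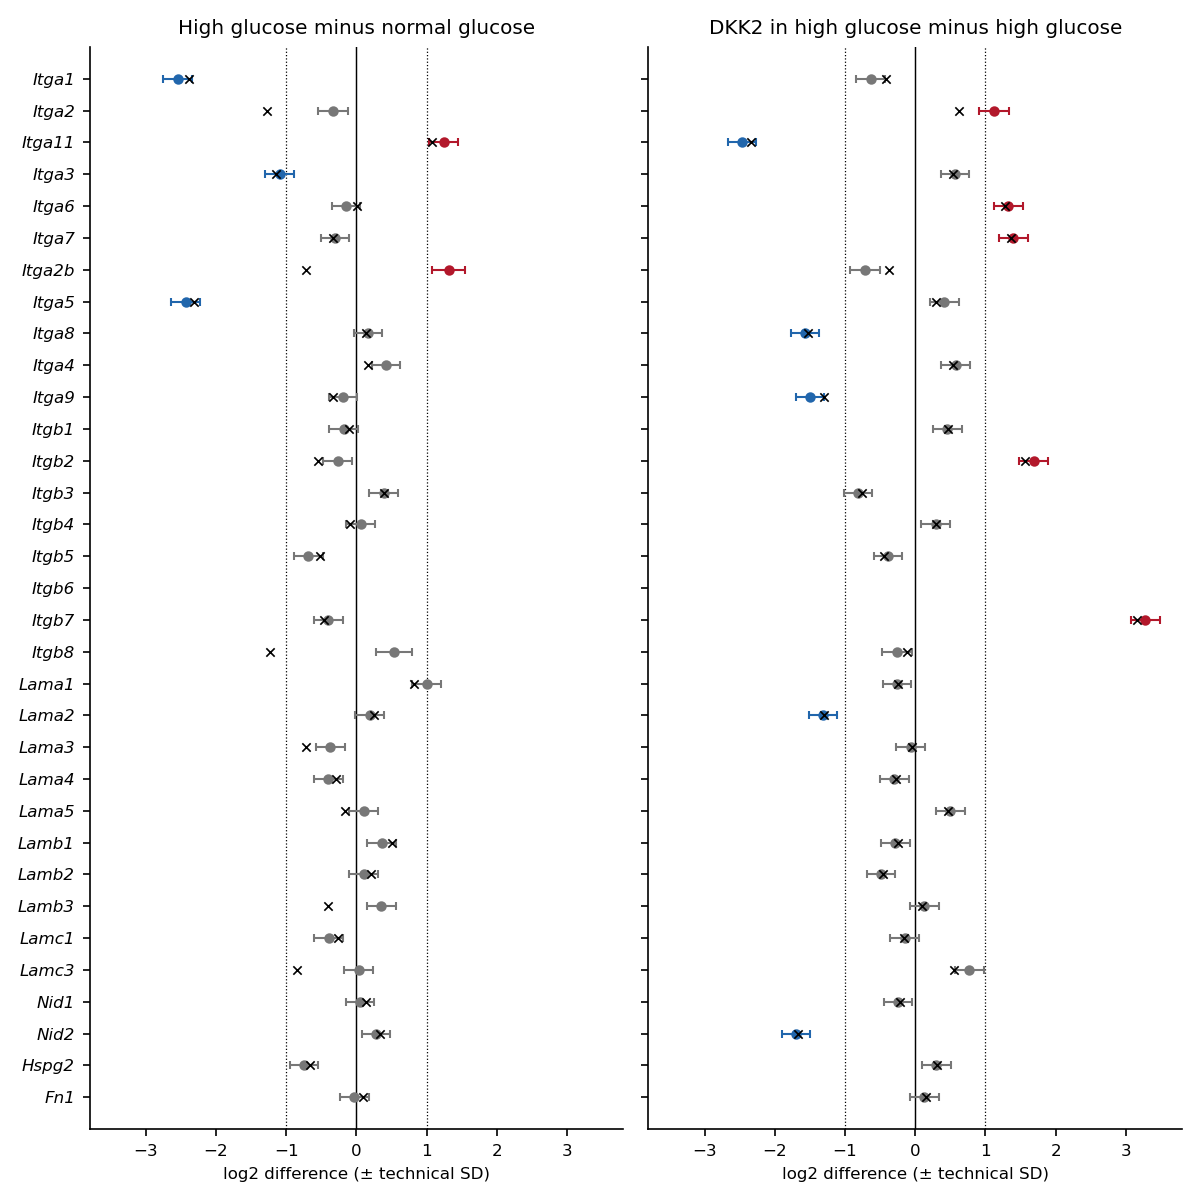
Log2 difference of each gene in high glucose against normal glucose (left) and with DKK2 in high glucose against high glucose (right), 1 array per condition; bars are the technical SD, dotted lines mark 2-fold, red is higher, blue lower, and crosses give the value with normexp background correction. Itgb7 at 3.28 and Itga11 at -2.47 are the extremes on the right, and crosses leave the points mainly for dim genes on the left, such as Itga2b and Itgb8.

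Itgb7 encodes a subunit that pairs with alpha 4 or alpha E on lymphocytes and other leukocytes. It read 861 on the normal glucose array, 654 in high glucose and 6347 with DKK2. The DKK2 array was 9.71-fold above high glucose, a difference of 3.28 (technical SD 0.20), at rank 17 from the top of 17825 genes. The other arrays lay within 1.32-fold of each other. Itgb2, the common beta subunit of the leukocyte integrins, read 400.5, 333 and 1073 and was 1.69 (technical SD 0.20) higher with DKK2. Itga4, the partner of beta 7 and beta 1 that binds VCAM1 and fibronectin, read 543, 727 and 1085; it was 0.58 above high glucose, within 2-fold.

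Subunits named by a letter rather than a number give the partners of these genes. Itgal and Itgax, which pair with beta 2 on leukocytes, were at 1.57 and 1.37 with DKK2. Itgal read 56.7 on the normal glucose array, 54.3 in high glucose and 161 with DKK2. Itgax read 119, 132 and 339. Itgam, another partner of beta 2 on leukocytes, read 46680.3, 29911 and 30696 and was at -0.64 in high glucose and 0.04 with DKK2. Itgav, the vascular RGD receptor subunit, was within 2-fold in both comparisons, with signals of 2014, 2137 and 1874. Of the letter-named list, 2 of 5 measured were higher with DKK2 and 0 lower, and 0 of 4 passed 2-fold in high glucose against normal glucose.

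Macrophage and leukocyte markers moved in the same comparison: 8 of 11 measured were higher with DKK2 and 0 lower, and their median was 1.61. Their summed scaled signal was 5428, 6641 and 19160.1 in normal glucose, high glucose and DKK2. The common leukocyte marker Ptprc read 47.0, 45.8 and 85.0, the macrophage marker Adgre1 132, 212 and 709, and no measured marker of the list was below background on any array. The part of these cells in the values of Itgb2 and Itgb7 was not tested.

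Itga6 and Itga7 encode the alpha subunits of major laminin receptors, alpha 6 in endothelium and epithelium and alpha 7 in muscle. Itga6 read 6367 on the normal glucose array, 5751 in high glucose and 14410.2 with DKK2, a difference of 1.33 (technical SD 0.20). Itga7 read 1534, 1242 and 3269, a difference of 1.40 (technical SD 0.20). For both genes the normal and high glucose arrays lay close together and the DKK2 array stood above them. Itga3, the other alpha subunit grouped here as laminin-binding, was 0.57 above high glucose. All 3 of that group thus lay above 0 and 2 of the 3 passed 2-fold. Those grouped as collagen-binding lay at -0.63 (Itga1), 1.12 (Itga2) and -2.47 (Itga11). Of the other skeletal muscle markers, 4 were lower with DKK2 and 0 higher, and Itga7, itself on that list, was the 1 higher; without Itga7 the summed signals of the list were 4582, 3963 and 1465. Among 6 measured epithelial markers 2 were higher with DKK2: Krt18 at 3.86 and Krt19 at 1.20, chosen after their values were seen. The 1 lower was Epcam, at -1.26 (-0.18 with normexp). The summed signals of the list were 690, 744 and 4262, of which Krt18 alone read 126, 229 and 3319. The defining markers Cdh1 and Krt8 were well above background on 1 array each. Of 17 endothelial markers 0 were higher and 5 lower (1 lower with normexp). Their sums were 17456 in high glucose and 18706 with DKK2, of which Kdr alone read 7305 and 8590.5. The part of these cells in the values of Itga6 and Itga7 was not tested.

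Lama3 and Lamb3 encode chains of the laminins of epithelia. Lamb3 read 131, 168 and 183 and was at 0.13 with DKK2. Lama3 read 284, 219.95 and 210.5 on its brighter probe (-0.37 in high glucose, -0.06 with DKK2) and 111, 180 and 54.4 on the other (0.69 and then -1.73). The Lama3 probes thus differed in size with DKK2 and in direction in high glucose.

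Itga2, which forms a collagen receptor with beta 1, read only 64.4, 51.2 and 111 and was 1.12 (technical SD 0.21) higher with DKK2, but 0.62 with normexp background correction.

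The lower genes of this comparison were 3 alpha subunits that pair with beta 1 and 2 basement membrane genes. Itga11 fell 5.52-fold from high glucose to the DKK2 array (-2.47, technical SD 0.20). Itga8, whose product with beta 1 binds nephronectin and fibronectin, read 1386 on the normal glucose array, 1557 in high glucose and 524 with DKK2, a difference of -1.57 (technical SD 0.20). Itga9, whose product with beta 1 binds tenascin C and osteopontin, read 704, 616 and 218, a difference of -1.50 (technical SD 0.20). For Itga8 and Itga9 the normal and high glucose arrays lay within 1.14-fold of each other.

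Lama2 encodes the alpha chain of muscle and nerve basement membranes. Its brighter probe read 3180.3, 3623 and 1459 (-1.31, technical SD 0.20) and its other probe 2677, 2903 and 1038 (-1.48). Both probes had the DKK2 array lowest. Nid2, a nidogen found in endothelial basement membranes, read 4769, 5782 and 1784, a difference of -1.70 (technical SD 0.20). Nid1, its relative, read 45713, 47428 and 39968 on its brightest probe, and all 3 of its probes lay between -0.39 and -0.25; in high glucose against normal glucose they ranged from -0.32 to 0.48.

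Fibroblast and mural markers lay on the same side in this comparison. All 12 fibroblast markers were below 0 with DKK2, 3 of them lower, with a median of -0.58 and a summed scaled signal of 1119560, 1025811 and 747215 in the same order. Of 11 smooth muscle and pericyte markers 10 were below 0 and 1 was lower, with a median of -0.33 and sums of 191508, 125361 and 84252. Of 9 adipocyte markers 6 were lower and 0 higher (median -1.88) and sums of 39647, 52917 and 19367. The mature smooth muscle marker Myh11 read 24.0, 32.3 and 25.2. Their part in the values of Itga8, Itga9, Itga11, Lama2 and Nid2 was not tested.

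Promoters are shown for those genes at least 2-fold apart with DKK2, also with normexp, that have an entry in the RefSeq table used (GRCm38.p6): 5 of 9, with Itga6, Itga7, Itgb2 and Nid2 having none. They show the stretch on which regulators of these genes could act, namely the 250 bases before the annotated start, 5′ to 3′ on the gene's strand. Itga11 (chr9:62677605-62677854, plus strand), Itga8 (chr2:12301945-12302194, minus strand), Itga9 (chr9:118711442-118711691, plus strand), Lama2 (chr10:27616943-27617192, minus strand) and Itgb7 (chr15:102231936-102232185, minus strand) follow, and capitals mark a match to a searched motif.
Itga11: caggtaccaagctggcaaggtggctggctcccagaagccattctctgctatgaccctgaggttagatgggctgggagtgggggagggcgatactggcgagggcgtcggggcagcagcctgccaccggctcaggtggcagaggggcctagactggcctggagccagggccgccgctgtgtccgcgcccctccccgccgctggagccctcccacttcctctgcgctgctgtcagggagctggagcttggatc
Itga8: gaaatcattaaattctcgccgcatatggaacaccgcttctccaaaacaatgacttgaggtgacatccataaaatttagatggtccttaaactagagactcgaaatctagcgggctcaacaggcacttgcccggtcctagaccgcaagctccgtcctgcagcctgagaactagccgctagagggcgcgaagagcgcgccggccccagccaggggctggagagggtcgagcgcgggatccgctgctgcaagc
Itga9: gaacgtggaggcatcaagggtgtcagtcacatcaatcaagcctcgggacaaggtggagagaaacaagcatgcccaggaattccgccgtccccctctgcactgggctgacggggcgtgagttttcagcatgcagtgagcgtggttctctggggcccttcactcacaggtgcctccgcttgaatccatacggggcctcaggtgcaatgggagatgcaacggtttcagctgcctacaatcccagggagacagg
Lama2: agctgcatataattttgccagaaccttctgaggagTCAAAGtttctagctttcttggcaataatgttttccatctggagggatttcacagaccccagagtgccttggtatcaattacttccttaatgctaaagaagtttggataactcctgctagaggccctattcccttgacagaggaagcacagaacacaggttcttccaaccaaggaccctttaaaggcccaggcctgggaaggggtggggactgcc
Itgb7: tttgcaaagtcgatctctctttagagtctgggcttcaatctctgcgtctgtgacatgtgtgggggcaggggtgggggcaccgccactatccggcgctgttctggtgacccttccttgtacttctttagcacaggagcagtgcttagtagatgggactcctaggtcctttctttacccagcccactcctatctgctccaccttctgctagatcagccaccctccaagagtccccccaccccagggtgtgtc
The motifs, searched on both strands, were CTTTGA (the core of sites for TCF/LEF, the Wnt pathway's transcription factors), TGACTCA (AP-1), GGGCGG (the GC box) and TATAAA (the TATA box); CTTTGA and TGACTCA can overlap by the letters they share at their ends. Lama2 held 1 match, to the TCF/LEF core, and the windows of Itga11, Itga8, Itga9 and Itgb7 held none of the 4 motifs. Of all 32851 promoter windows of this length in the table, 13.8% held the TCF/LEF core, 4.46% the AP-1 letters, 32.7% the GC box and 12.4% the TATA box. The GC content was 68.4% in Itga11, 56.4% in Itga8, 58.4% in Itga9, 47.2% in Lama2 and 56.0% in Itgb7, against a median of 52.4% over all windows. A match is a description of letters and not a site of binding.

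On their brightest probes, the remaining genes stayed within 2-fold in both comparisons. Among the beta subunits, Itgb1, the partner of most alpha subunits above, read 7319.5, 6456 and 8879 on its brighter probe (-0.18 and then 0.46) and 3769, 2036 and 1778 on the other (-0.89 and then -0.20), so its direction with DKK2 differed between probes. Itgb3, the partner of alpha v on activated endothelium, read 1492, 1956 and 1110.2, at 0.39 in high glucose and -0.82 with DKK2, while its dim other probe read 47.7, 46.5 and 53.4. Itgb5, another partner of alpha v, read 39779, 24735 and 18901, with both differences below 0 (-0.69 and -0.39). Itgb4, the partner of alpha 6 in hemidesmosomes, read 909.8, 949 and 1163. Itgb8 read 27.1, 39.3 and 32.9, and its difference of 0.54 in high glucose was -1.23 with normexp. Itgb6, an epithelial subunit, read 4.41, 11.0 and 8.55, above background in high glucose alone; no fold or direction is given for it.

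The main chains of vascular laminin stayed within 2-fold. Lama4, the endothelial alpha chain, read 10805, 8192 and 6662, at -0.40 in high glucose and -0.30 with DKK2. Lama5, found in mature vessel walls, read 546, 588 and 831, at 0.11 and 0.50. Lamb1 read 34206, 43924 and 36071, and Lamc1 read 25089.9, 19115 and 17209.9; these 2 chains, part of most laminins, lay between -0.39 and 0.36. Lamb2 read 6262, 6740.0 and 4809, at -0.49 with DKK2, and Lamc3 read 114, 117 and 199, at 0.77. Of the 10 laminin chains, 0 were higher with DKK2 and 1 was lower (Lama2); their median was -0.20. Of the 18 measured integrin subunits 5 were higher and 3 lower (median 0.35). Hspg2, the heparan sulfate proteoglycan that binds laminin and growth factors, read 51242, 30543 and 37586 (-0.75 and then 0.30); its other probe read 2097, 916 and 892, at -1.19 in high glucose and -0.04 with DKK2.

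**Figure D3:**
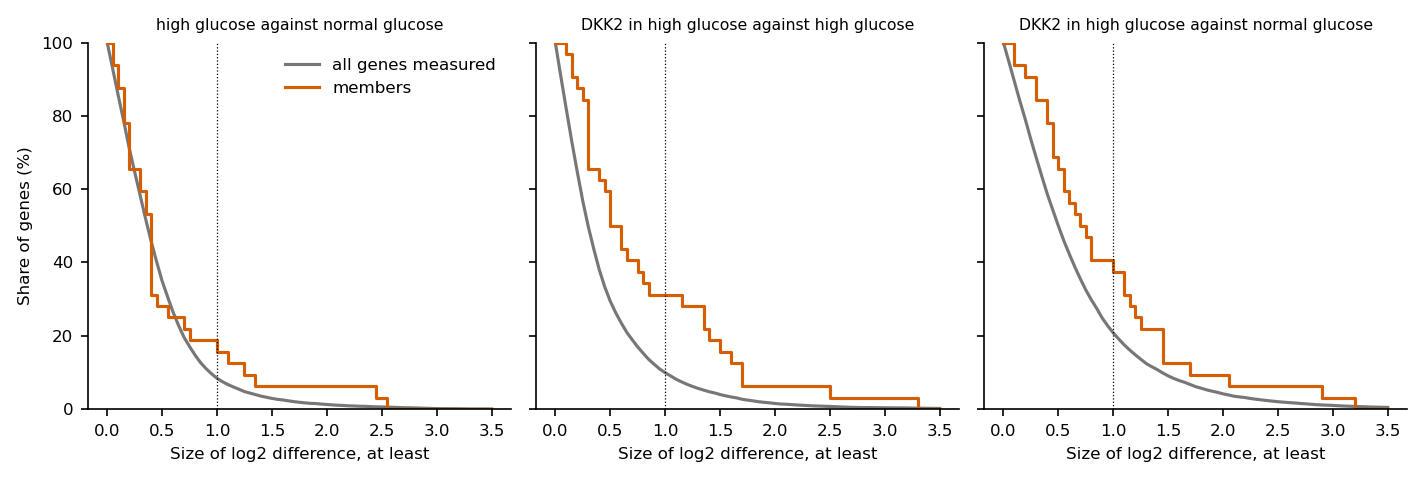
Share of genes (%) whose log2 difference has at least the size on the x axis, for the 32 measured integrin, laminin and partner genes (orange) and all genes measured on both arrays (grey), in the 3 comparisons. In high glucose against normal glucose, 25.0% of the 32 genes and 26.4% of all genes reach a size of 0.6, and with DKK2 against high glucose the shares are 43.8% and 23.5%.

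The third comparison, DKK2 in high glucose against normal glucose, shares both its arrays with the other comparisons, and each of its differences is the sum of the former 2. In it 4 of 32 genes were higher and 8 lower, a share of 37.5%, where 20.8% of 16676 genes were at least 2-fold apart (10.5% higher and 10.4% lower). The higher genes were Itgb7 at 2.88, Itgb2 at 1.42, Itga6 at 1.18 and Itga7 at 1.09. The lower genes were Itga1 at -3.18 (its other probe at -0.78, the mean over both at -1.98), Itga5 at -2.02, Itga9 at -1.69, Nid2 at -1.42, Itga8 at -1.40, Itga11 at -1.22, Lama2 at -1.12 and Itgb5 at -1.07. The calls of Itga6 (0.996 with quantile normalization), Itga7 (0.992 with cyclic loess) and Itgb5 (-0.96 with normexp) were each lost under an alternative. Itga1 and Itga5 were already lower in high glucose without DKK2. Itga4 lay just inside 2-fold at 0.999.

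Other rules for the call gave other counts, each read here against all genes. With normexp, 1 of the 32 genes was higher in high glucose (all genes 1.02%) and 5 were lower (23.5%). With DKK2 against high glucose, normexp left 4 higher (2.83%) and 5 lower (2.68%), and against normal glucose 4 higher (5.61%) and 9 lower (24.1%). Where a processed signal of at least 100 was required on every array, 27 genes remained beside 12165 of all genes. In high glucose 1 of them was higher (1.8%) and 3 were lower (4.78%). With DKK2 they were 4 higher (3.24%) and 5 lower (4.04%) against high glucose, and 4 higher (8.71%) and 8 lower (9.35%) against normal glucose.

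With a size of 1.5-fold, 3 of 32 were higher (all genes 14.0%) and 5 lower (13.6%) in high glucose. With DKK2 against high glucose 6 were higher (13.1%) and 8 lower (11.3%), and against normal glucose 10 were higher (24.2%) and 9 lower (19.2%). With a size of 3-fold, 0 were higher (0.626%) and 2 lower (1.93%) in high glucose. With DKK2 against high glucose 2 were higher (1.59%) and 2 lower (1.8%), and against normal glucose 1 was higher (3.44%) and 3 lower (4.49%). In high glucose the share of the 32 genes was thus below that of all genes with normexp and at 1.5-fold, and above it with the signal minimum and at 3-fold. With DKK2 against high glucose it was above that of all genes under each of these rules.

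Other genes of the adhesion machinery were taken from lists chosen by function. Of 30 measured adaptors and kinases of the focal adhesion, the complex that ties integrins to actin, 0 were higher and 2 lower in high glucose: Actn1, an actin cross-linker, read 24730.2, 3824 and 3121 (-2.69), and Ptk2b, a kinase related to focal adhesion kinase, was at -1.08. With DKK2 1 was higher and 2 were lower. These shares, 6.67% and 10.0%, lay near or below the 8.4% and 9.93% of all genes. The genes with DKK2 were Fermt3, the kindlin of blood cells, at 1.11 (signals of 23.3, 30.3 and 65.6; 0.63 with normexp), Lims2 at -1.40 and Vcl, the vinculin gene, at -1.10. Talin, kindlin 2 and integrin-linked kinase genes (Tln1, Fermt2, Ilk) were not among those past 2-fold in either comparison. The list medians were 0.05 in high glucose and 0.07 with DKK2, close to those of all genes.

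Of 17 other integrin ligand genes 1 was higher and 1 lower in high glucose (11.8%, all genes 8.4%). Npnt, which encodes the alpha 8 ligand nephronectin, read 471, 89.6 and 143 (-2.39), and Icam2, a beta 2 ligand on endothelium, read 62.9, 369.7 and 161 (2.56, 0.89 with normexp). With DKK2 1 was higher and 6 were lower (41.2%, all genes 9.93%). Spp1, the osteopontin gene, read 31321, 38441 and 149738 (1.96), and Ccn2 (-2.62), Postn (-2.44) and Ccn1 (-1.45) were among the lower ones.

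Of 12 other laminin receptors 1 was higher and 2 were lower in high glucose, a share of 25.0% (Sgcb at 1.06, Bcam at -1.60 and Sdc4 at -1.08), and 0 passed 2-fold with DKK2. Of 19 other basement membrane genes 1 was higher and 2 were lower in high glucose (15.8%), among them Tinagl1 at -1.86, with signals of 7130.2, 1962 and 2968, and Fbln2 at -1.05; the higher 1, Frem1 at 1.28, was at -0.87 with normexp. With DKK2 0 were higher and 2 lower (10.5%, near the share of all genes), Smoc1 at -3.33 (-1.53 with normexp) and Frem1 at -2.30 (-0.83 with normexp), both dim.

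Against normal glucose the arrays were shared as above, and 20.8% of all genes were past 2-fold. Of 30 focal adhesion genes 2 were higher with DKK2 and 6 lower. Among the lower were Actn1 (-2.99), Ptk2b (-1.17) and Parvg (-1.28, on dim signals of 51.6, 26.7 and 21.3). Lims1 was among the higher at 1.24. Of 17 other ligands 3 were higher and 6 lower, led by Spp1 at 2.26 and by Ccn2 (-2.34), Postn (-1.88) and Npnt (-1.72). Of 12 other laminin receptors 2 were higher (Sdc1 at 1.25 and Sgcb at 1.18) and 3 lower, including Sdc4 at -1.43 and Bcam at -1.21. Of 19 other basement membrane genes 0 were higher and 5 lower, including Smoc1 (-2.52), Tinagl1 (-1.26), Col4a1 (-1.03) and Frem1 (-1.02). Of 4 letter-named integrins 2 were higher and 0 lower, Itgax and Itgal, both at 1.51. With normexp Itgax was at 0.33 and Itgal at -0.22.

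Probes of 1 gene did not always agree. In high glucose against normal glucose, 3 of 7 genes with 2 or more measured probes had probes on both sides of 0 (Itgb3, Lama3 and Nid1), and with DKK2 against high glucose 3 of 8 had (Hspg2, Itgb1 and Itgb3). In DKK2 against normal glucose 3 of 7 had (Itgb1, Itgb3 and Nid1). The largest spread in each comparison was 1.83 log2 units for Itga1 in high glucose, 1.66 for Lama3 with DKK2 against high glucose and 2.40 for Itga1 with DKK2 against normal glucose. Of the genes called with DKK2 against high glucose, Lama2 was the 1 with a second probe, and both its probes passed 2-fold. Against normal glucose both Lama2 probes passed 2-fold too, but of the Itga1 probes the dimmer, at -0.78, did not.

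**Figure D4:**
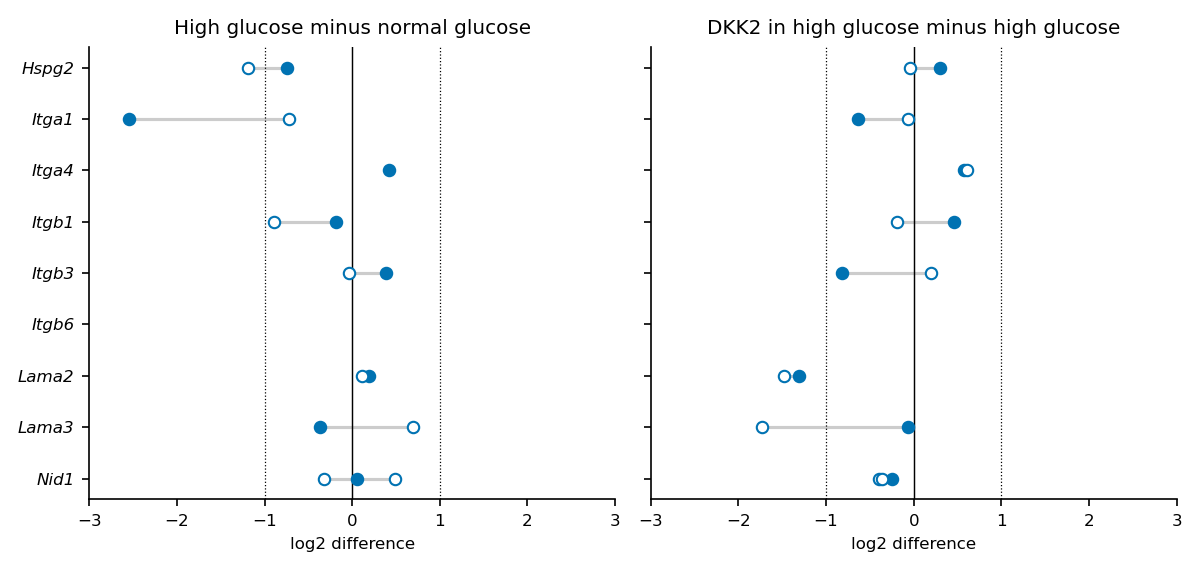
Log2 difference of each probe well above background on both arrays, for the genes with 2 or more probes; filled circles are the brightest probe, which stands for the gene, open circles the others, and dotted lines mark 2-fold. The Lama2 probes lie together at -1.31 and -1.48 with DKK2, while those of Itga1 lie at -2.55 and -0.72 in high glucose and those of Lama3 at -0.06 and -1.73 with DKK2; Itgb6 had no probe measured on both arrays.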

How the data were processed

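Total RNA of 3 samples per condition was pooled and run on 1 Agilent array each, per the labels. Per the file headers, Feature Extraction 11.5.1.1 gave a background-corrected linear intensity per spot, with its error and flags, and the authors deposited these with a value table of the same intensity, averaged over spots (99.7% of probes within a fraction of 0.001), in which scale and centring are those of the scanner. Its medians are 101.8, 196.2 and 204.6 in normal glucose, high glucose and DKK2.

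Control spots (1377 of 44397) and outlier spots (110, 115 and 136) were left out, and no spot was saturated. Values are log2 intensity minus each array's 75th percentile over 39429 probes. Probes were named by accession in a RefSeq table of GRCm38.p6, another build than that of the headers and used for names only. Of them 27508 matched 1 symbol, and 11921 matched none or several and were left unnamed. A gene's brightest probe stood for it, counted where at least 50% of its spots were well above background on both arrays.

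Every member is reported with its signal on each array, and its other probes where their sign differs or they lie over 1 log2 unit away; from each list of other genes, up to 4 per comparison are named, with the largest difference at least 2-fold and of the same sign with normexp. One gene of the rule is not reported here. The genes and lists were chosen with earlier results of these data known. The counting was tested on simulated data. The alternatives were normexp on median signals (offset 50), quantile, median and cyclic loess normalization, no filter on dim probes, a signal of at least 100, averaging a gene's probes, the authors' value table, and sizes of 1.5-fold and 3-fold. Tools were R 4.3.3, limma 3.58.1, Python 3.11.15, numpy 2.4.6 and pandas 2.3.3.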

Additional observations from a re-analysis of the deposited data

How the results depend on the processing

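Each of the 10 genes called with DKK2 against high glucose kept its sign in all 8 alternatives that measured it. These covered scaling, background, filter, probe and table. Of the 10 genes, 9 kept at least 2-fold and Itga2 did not. For a gene with 1 probe, the filter and probe alternatives can only repeat the main value or leave the gene out. Median scaling shifts all genes alike, and the authors' value table holds the same intensity. Normexp, quantile and cyclic loess were thus the alternatives able to change such a gene on its own. In high glucose against normal glucose, 4 of the 5 called genes kept sign and 2-fold, and Itga2b reversed to -0.72 with normexp. In DKK2 against normal glucose, all 12 kept their sign, and Itga6, Itga7 and Itgb5 fell below 2-fold in at least 1 alternative. In high glucose against normal glucose, 1 gene was higher with normexp and 1 with the stricter filter, 0 at 3-fold, and 5 were lower with normexp and 5 at 1.5-fold; the median was -0.28 with normexp. With DKK2 against high glucose, 2 genes were higher and 2 lower at 3-fold, and 8 lower at 1.5-fold. In DKK2 against normal glucose, 10 were higher at 1.5-fold and 1 at 3-fold, and 3 were lower at 3-fold; the median was -0.36 with normexp, -0.28 with cyclic loess and -0.43 with the stricter filter. Among other genes named by the rule, normexp reversed Frem1 to -0.87 in high glucose, and Fermt3 to -0.78, Icam2 to -0.066 and Itgal to -0.22 with DKK2 against normal glucose. Normexp also moved the median of all genes from 0.09 to -0.26 in high glucose and from 0.12 to -0.25 with DKK2 against normal glucose; the cause was not tested. Values under a scaled signal of about 100 (Itga2, Itga2b, Itgb6, Itgb8) lie where background sets the precision. In high glucose against normal glucose, normexp put Itga2 at -1.27 and Itgb8 at -1.23, both past 2-fold. The somewhat brighter Lamc3 and Lamb3 changed sign there, from 0.03 to -0.84 and from 0.35 to -0.41. Names from the scanner files alone were not run, since those files pair probes with accessions. No paired analysis was possible because each condition has 1 array, and for the same reason none could be left out.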
